A study of Mus musculus with 14 samples.

Results

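Among the 3397 cells annotated as CA1 excitatory neurons, 366 had been placed by the submitters in Leiden cluster 3, a cluster that also held dentate and CA3 neurons and whose cells had few counts. These 366 cells, chosen by their class and cluster number in the deposited cell table and out of 13602 annotated cells in all, are described here beside the 2973 CA1 neurons of Leiden cluster 1. The other 58 CA1 neurons lay in Leiden clusters 0, 6, 8 and 14. MERFISH, which identifies and counts single RNA molecules of a chosen gene panel by repeated imaging of tissue, had been run on sagittal sections of fresh-frozen mouse hemibrains. Transcripts of 255 genes were available in 14 samples, each a section from mice that received radiation (Ir) or none (Ctl) and were given vehicle (Veh) or RZ, an agent named in the labels by this abbreviation. Panel counts and measured genes below refer to these 255 genes, Abi3 to Kcnj8 in the alphabet. They hold 55.9% to 59.2% of the deposited total counts per sample, and genes later in the alphabet were not available. There were 5 samples of Ctl-Veh and 3 of Ctl-Rz among the unirradiated, and 4 of Ir-Veh and 2 of Ir-Rz among the irradiated. Strain, age, sex, radiation dose and whether samples came from separate animals are not given in the sources used here, so every p-value below is set by how these samples vary, which may be technical variation. The number in a sample name matched the assay number in the cell table and is called the run here. Each of the 7 runs held 2 samples. That a run was 1 imaging session is an assumption.

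CA1 pyramidal neurons form a thin, densely packed layer that sends the main output of the hippocampus, and their firing is needed to form memories of places and events. When such a neuron is strongly activated it briefly transcribes immediate early genes, which encode transcription factors such as Fos and the Egr family and the synaptic protein Arc. Imaging of a tissue section sees a cell only as far as its outline lies in the section, so the counts of a cell depend on the outlined volume as well as on its RNA.

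The Leiden 3 CA1 neurons had small outlines and few transcripts, but as many transcripts per unit of volume as Leiden 1 CA1 neurons. The median Leiden 3 CA1 neuron had 163.5 deposited counts and the median Leiden 1 CA1 neuron 616. The median outline volume was 188 in Leiden 3 and 810 in Leiden 1, in a deposited unit that is not stated. Counts per unit of volume had medians of 0.814 and 0.812. In the separate samples, the median density of Leiden 3 cells was 0.836 to 1.14 times that of Leiden 1 cells.

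The difference in volume was found in every sample. The ratio of median volumes, Leiden 3 over Leiden 1, averaged -1.84 ± 0.121 on the log2 scale (SE, n = 14), which is 3.57-fold smaller, and Leiden 3 was lower in 14 of 14 samples (two-sided exact sign-flip permutation test, p = 0.000122, the smallest this test can give; adjusted p = 0.000977 over 8 tests of volume and position). The ratio of medians ran from 0.199 in Ctl-Rz 11 to 0.655 in Ctl-Veh 12, which held 3 Leiden 3 CA1 neurons. Whether the submitters scaled counts by volume before clustering is not given in the sources used here, so volume may not be wholly independent of the cluster. Within both clusters larger outlines held more counts, with a Spearman rho of 0.832 over the 366 Leiden 3 cells and 0.852 over the 2973 Leiden 1 cells, given as a description of cells that share sections.

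Small outlines were found in both clusters. Of the Leiden 3 CA1 neurons 88.3% had a volume of 400 or less, as did 16.2% of the Leiden 1 CA1 neurons. Because Leiden 1 is the larger cluster, the 810 CA1 neurons at or below this volume were 59.4% Leiden 1 and 39.9% Leiden 3. All cells in the deposited table lay between 100.016 and 1599.88 in volume, and between 27 and 1499 in counts.

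**Figure D1:**
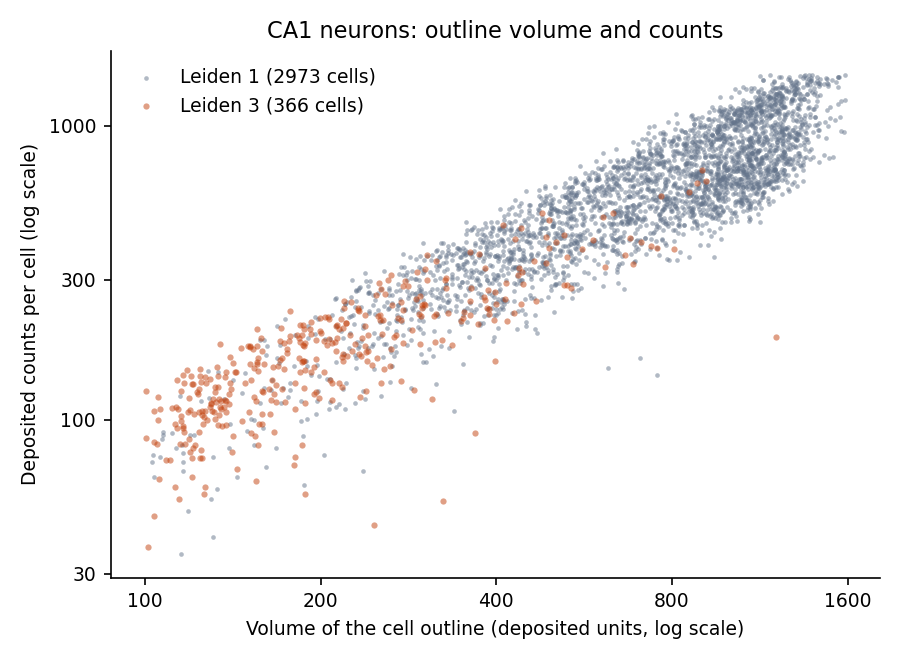
Deposited counts (vertical, log scale) against outline volume in deposited units (horizontal, log scale) for each CA1 neuron of Leiden 1 (grey) and Leiden 3 (orange). Both clusters lie along the same band, with the Leiden 3 cells at its lower end (median volume 188, against 810).

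The Leiden 3 cells carried the markers of CA1 neurons near the level of Leiden 1. Fibcd1, a receptor-like protein whose transcript marks CA1 pyramidal neurons, made up 16547 ± 3406 CPM, the counts of a gene scaled to 1000000 counts of the 255 genes (SD, n = 14), in Leiden 3 and 17003 ± 3441 in Leiden 1. Adgrl2, an adhesion receptor (latrophilin 2) at CA1 synapses, was at 10384 ± 4520 CPM in Leiden 3 and 9597 ± 1634 in Leiden 1. Gm2115, the third CA1 marker, was at 13947 ± 2513 and 15203 ± 1442 CPM. Within samples, the sum of the 3 genes was lower in Leiden 3 in 8 and higher in 6 of the 14 samples. None of the 3 was lower, or higher, in 12 or more samples.

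Other Leiden 3 cells of the same sections had little of these transcripts. Fibcd1 was at 295 ± 462 CPM in Leiden 3 CA3 neurons and 1222 ± 494 CPM in Leiden 3 dentate neurons. Adgrl2 was at 346 ± 337 and 370 ± 162 CPM there. Conversely, Iyd, a CA3 marker, was at 197 ± 313 CPM in Leiden 3 CA1 neurons and 3460 ± 1928 CPM in Leiden 3 CA3 neurons. Grm2, a metabotropic glutamate receptor of granule cells, was at 265 ± 347 CPM in Leiden 3 CA1 neurons and 12777 ± 3801 CPM in Leiden 3 dentate neurons. The class label thus went with the markers, although how the submitters assigned the classes is not given in the sources used here.

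Of the 366 cells, 350 (95.6%) held at least 1 count of Fibcd1, Adgrl2 or Gm2115, and 16 held none. At least 1 Fibcd1 count was found in 76.5% of Leiden 3 CA1 neurons (95% exact binomial interval 71.8% to 80.8%, counting error only; median 104 panel counts per cell) and in 96.4% of Leiden 1 CA1 neurons (median 396). The share in Leiden 3 dentate neurons, which should lack the gene, was 11.1% at a median of 94 panel counts, and in Leiden 3 CA3 neurons 3.01% at a median of 109. When each cell was thinned to 50 counts, Fibcd1 was found in 56.2% of Leiden 3 and 54.9% of Leiden 1 CA1 neurons, and Adgrl2 in 36.6% and 35.7%. At this depth both clusters had a median of 26 genes per cell, against 38 and 67 genes before thinning. The thinning left out 19 of 366 Leiden 3 and 18 of 2973 Leiden 1 cells, which had under 50 counts.

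The gene profile as a whole was close to that of Leiden 1. Over the 97 genes with 0.2 or more counts per cell in either cluster, the log2 mean CPM of the clusters correlated with Pearson's r = 0.978, a description across genes of the same panel. The log2 ratio, Leiden 3 over Leiden 1, had a median of 0.03 and lay within 0.25 of 0 for 66 of the 97 genes. It exceeded 1 in size for 5 genes. Since the clusters had been made from these genes, the differences between them are described below without a test.

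Transcripts of immediate early genes stood out on the low side. In 12 or more of the 14 samples, 6 of the 97 genes had a lower share in Leiden 3 and 2 a higher one. The lower genes were Egr2, Egr4, Fos, Arc, Egr1 and App, and the first 5 of these are activity-induced. The higher genes were Enpp2 and Ctnnb1. Fos, Egr4, Egr2 and Enpp2 passed the limit of 0.2 counts per cell through Leiden 1 alone. In Leiden 3 they had 0.131, 0.071, 0.0219 and 0.189 counts per cell. Leiden 1 cells held more counts, so a rare gene enters the 97 more readily when its share is high there. The low shares of Fos, Egr4 and Egr2 are thus partly favoured by this limit. Arc, Egr1, App and Ctnnb1 passed it in both clusters. Without the 2 samples of run 12, which held 3 and 9 Leiden 3 CA1 neurons, 8 genes were lower and 5 higher in 10 or more of the remaining 12 samples, and all 8 genes named here were among these 13.

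Egr1, a zinc-finger transcription factor induced by firing, ranged from 5315 to 14915 CPM with a median of 11405 over the 14 samples in Leiden 3, and from 12122 to 22507 CPM with a median of 17262 in Leiden 1. It was lower in Leiden 3 in 14 of 14 samples, with a log2 ratio of mean CPM of -0.67. Arc, which remodels synapses after activity, ranged from 0 to 14568 CPM with a median of 9528 in Leiden 3 and from 9940 to 23954 CPM with a median of 15591 in Leiden 1. It was lower in 13 of 14 samples (log2 ratio -0.77). Both are abundant genes, with 521 and 433 counts in all Leiden 3 CA1 neurons, and the 0 for Arc came from Ctl-Veh 12 with its 3 cells. In cells thinned to 50 counts, at least 1 Arc count was found in 34.6% of Leiden 3 and 47.1% of Leiden 1 CA1 neurons, and at least 1 Egr1 count in 38.9% and 50.6%.

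The rarer factors differed by more, from few counts. Fos, a subunit of the AP-1 transcription factor, was at 1104 ± 1082 CPM in Leiden 3 and 2674 ± 738 in Leiden 1 and was lower in 13 of 14 samples (48 counts in Leiden 3). Egr4 was at 471 ± 632 and 1614 ± 570 CPM and was lower in 14 of 14 samples (26 counts). Egr2 was at 181 ± 238 and 810 ± 229 CPM and was lower in 13 of 14 samples (8 counts), and 7 samples had no Egr2 count in Leiden 3. Egr4 had no count in Leiden 3 in 6 samples and Fos in 2. A sample with no count in Leiden 3 is counted as lower. The log2 ratios were -1.28 for Fos, -1.78 for Egr4 and -2.16 for Egr2.

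**Figure D2:**
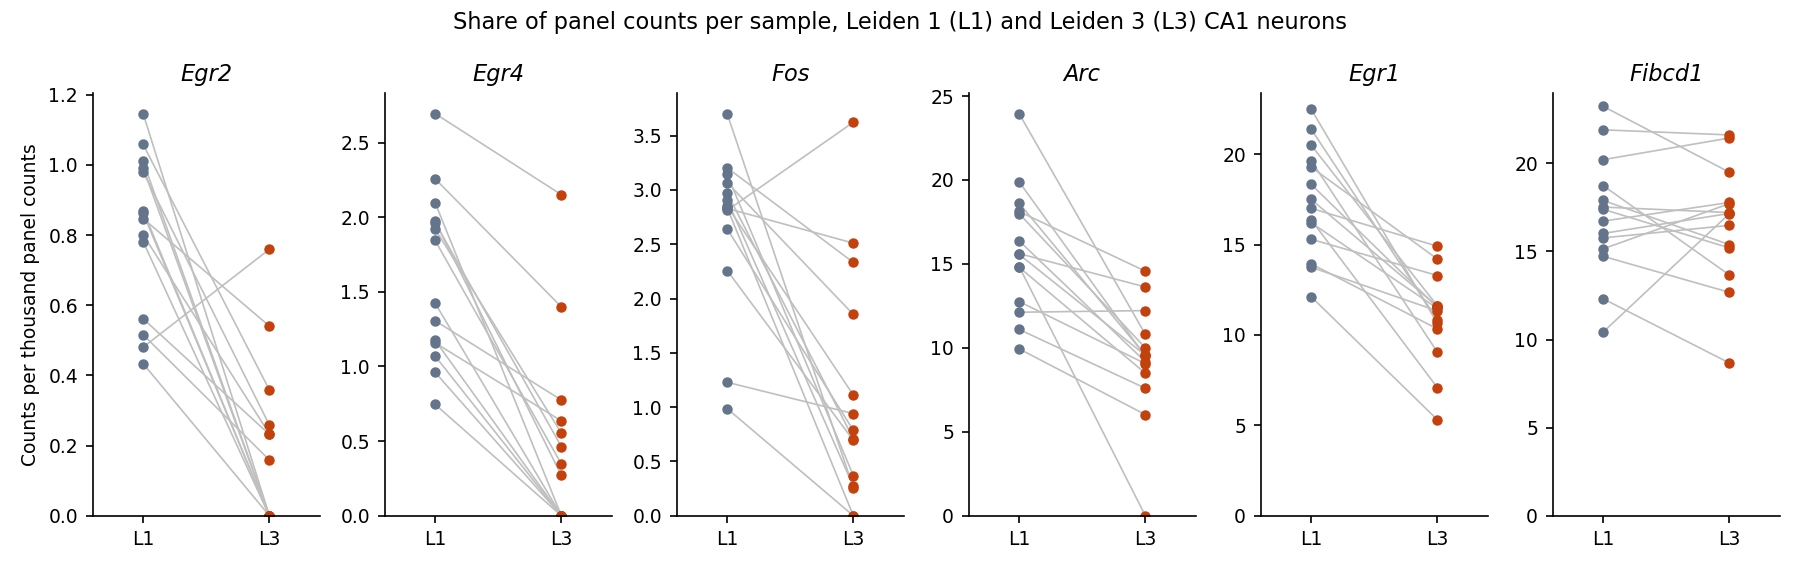
Share of panel counts (counts per 1000 panel counts, linear axes from 0) of 5 activity-induced genes and of the CA1 marker Fibcd1 in each of the 14 samples, with a line joining Leiden 1 (L1, grey) and Leiden 3 (L3, orange) CA1 neurons of a sample. Egr4 and Egr1 were lower in Leiden 3 in 14 of 14 samples, while Fibcd1 had means of 16547 and 17003 CPM.

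Of 9 measured immediate early genes, 7 had a lower mean share in Leiden 3 and 2 a higher one, Bdnf and Homer1. Of the 7, the 5 named above were lower in 12 or more samples. The median log2 ratio of the 9 genes was -0.77, against 0.07 over those of the 255 genes with counts in both clusters. Fosb and Fosl2, other AP-1 subunits, were at 314 ± 350 and 843 ± 728 CPM in Leiden 3 and 573 ± 204 and 1066 ± 341 CPM in Leiden 1. Bdnf, the growth factor that supports synapses, was at 1948 ± 1520 CPM in Leiden 3 and 1578 ± 500 in Leiden 1, and was higher in Leiden 3 in 8 of 14 samples.

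Summed over the 9 genes, immediate early transcripts made up a smaller share in Leiden 3 in 14 of 14 samples. In Leiden 3 of Ctl-Veh 2, 3, 8, 11 and 12 the sums were 26195, 22671, 25128, 23067 and 10638 CPM, and in Leiden 1 they were 43712, 32713, 53044, 43052 and 38884. In Ctl-Rz 3, 8 and 11 they were 33299, 25712 and 19742 CPM in Leiden 3 and 42645, 51843 and 28372 in Leiden 1. In Ir-Veh 1, 2, 9 and 12 they were 33704, 23767, 26384 and 27256 CPM in Leiden 3 and 41378, 49861, 44244 and 31501 in Leiden 1. In Ir-Rz 1 and 9 they were 30550 and 28080 CPM in Leiden 3 and 40093 and 43920 in Leiden 1. Within each sample Leiden 3 was the lower, in every group, although the highest Leiden 3 value lay above the lowest Leiden 1 value.

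The share was also taken within the smaller outlines. Among CA1 neurons with a volume of 400 or less, immediate early genes made up 27198 ± 7680 CPM in the 323 Leiden 3 cells and 45426 ± 10707 CPM in the 481 Leiden 1 cells (SD, n = 14), and Leiden 3 was the lower in 14 of 14 samples. Leiden 1 cells above that volume were at 41628 ± 7437 CPM, below the small Leiden 1 cells in 11 of 14 samples. The limit of 400 was chosen after the volumes had been seen, and sizes below it were not matched, since 196 of the 323 Leiden 3 cells and 78 of the 481 Leiden 1 cells lay at 100 to 200.

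In the smallest outlines, of 100 to 200 in volume, immediate early genes were 3.24% of panel counts in 196 Leiden 3 cells (Wilson 95% interval 2.98% to 3.53%) and 7.14% in 78 Leiden 1 cells (6.52% to 7.82%). From 200 to 400 they were 2.41% in 127 Leiden 3 cells and 4.13% in 403 Leiden 1 cells. From 400 to 800 they were 2.30% in 37 and 4.19% in 980 cells. Only 6 Leiden 3 cells were larger. The intervals cover counting error only and pool cells of all samples. With both clusters and the 58 other cells pooled, so that size alone defined the cells, the share was 4.33% from 100 to 200, 3.78% from 200 to 400, 4.10% from 400 to 800 and 4.29% above. The clusters had been made from these same genes, so the gap between them within a size is a description.

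**Figure D3:**
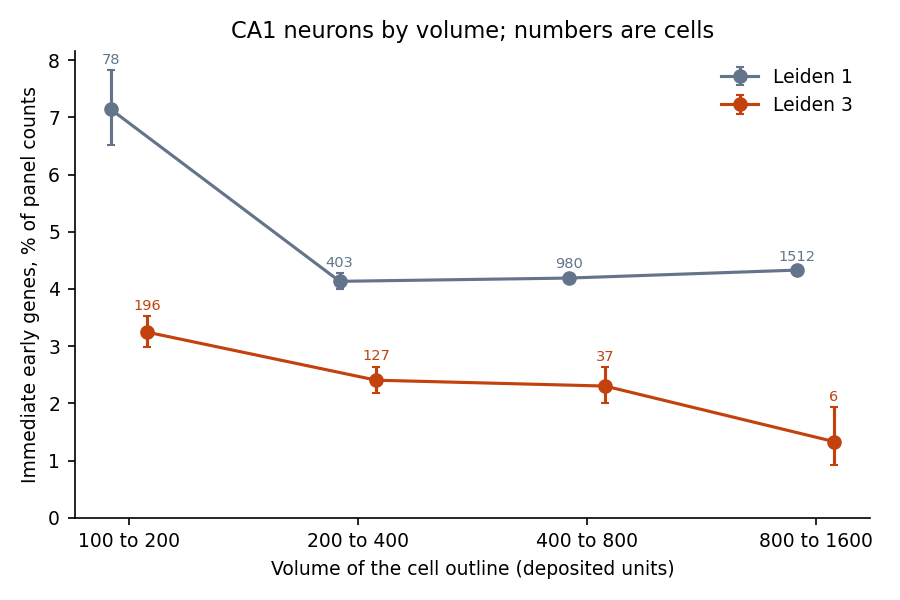
Share of panel counts taken by 9 immediate early genes (vertical, percent) in CA1 neurons of Leiden 1 (grey) and Leiden 3 (orange) by outline volume in deposited units, with Wilson 95% intervals for counting error and the number of cells at each point. Leiden 3 lies below Leiden 1 in each volume class, 3.24% against 7.14% in the smallest, and the largest class holds 6 Leiden 3 cells.

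The promoters of Fos and Egr4, which had 1 window each, are shown as an example of the sequence ahead of activity-induced genes. Promoters of activity-induced genes often carry cAMP response elements, bound by CREB. The letters below are the 250 bases before the transcription start in RefSeq on build GRCm38.p6, 5′ to 3′ on the gene's strand, with each TGACGT (or its reverse complement ACGTCA), the core of that element, in capitals. Fos lies on the plus strand, chr12:85473640-85473889, and holds 1 match. Egr4 lies on the minus strand, chr6:85513590-85513839, and holds 2 matches.
Fos: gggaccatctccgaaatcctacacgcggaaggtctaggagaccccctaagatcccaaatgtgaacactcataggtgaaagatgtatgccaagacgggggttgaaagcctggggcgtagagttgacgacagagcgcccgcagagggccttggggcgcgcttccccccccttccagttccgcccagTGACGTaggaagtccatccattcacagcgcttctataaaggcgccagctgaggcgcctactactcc
Egr4: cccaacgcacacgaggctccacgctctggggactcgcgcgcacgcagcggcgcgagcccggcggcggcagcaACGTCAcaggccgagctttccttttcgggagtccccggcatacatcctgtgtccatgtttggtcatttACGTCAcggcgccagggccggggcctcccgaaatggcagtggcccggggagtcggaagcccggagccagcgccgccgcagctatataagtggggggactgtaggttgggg

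Of all 32851 promoter windows in the table, 6.47% held this motif on either strand. The table had 5 windows for Egr2, of which 3 held it, and these overlap one another and are not shown. For Arc and Egr1, 0 windows were searched, so the sequences shown cover 2 of the 5 genes. A second motif searched, the CArG box (A and T bases between CC and GG), had 0 matches in the Fos and Egr4 windows. Sequence beyond the 250 bases was not searched, so a CArG box farther from the start would be missed. The motif was held by 4 of the 5 Egr2 windows and by 1.47% of all windows. A match is a description of the letters and not a measured binding site, and any part in the low shares was not tested.

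The same genes were set beside the low-count cells of the other classes. The log2 ratio of Egr2, Leiden 3 over the main cluster of its class, was -2.16 in CA1, 0.57 in dentate (Leiden 0) and 0.01 in CA3 neurons (Leiden 8). For Egr4 it was -1.78, 0.15 and -1.13, for Fos -1.28, 0.49 and 0.38, for Arc -0.77, 0.42 and -0.20, and for Egr1 -0.67, -0.05 and -0.28. In CA3 Leiden 3 cells, Egr4 was lower in 12 of 14 samples, Egr1 in 11, Arc and Egr2 in 10 each, and Fos in 6. In dentate Leiden 3 cells, Egr4, Egr1 and Arc were lower in 8 samples each, Egr2 in 5 and Fos in 4. Lower shares in most samples were thus also seen in CA3 for 4 of the 5 genes. For Egr2, 1 of these 4, the mean share in CA3 was 253 CPM in Leiden 3 and 252 in Leiden 8. The difference between classes was not tested. Across the 71 genes that reached 0.2 counts per cell in both classes, the log2 ratios of CA1 and dentate correlated with Pearson's r = 0.313, and across 86 genes those of CA1 and CA3 with 0.230, as descriptions across genes of 1 panel.

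App, the amyloid precursor protein gene and the most abundant transcript among the 255 genes analysed in CA1 neurons, was lower in Leiden 3 in 13 of 14 samples, at 100580 ± 29554 CPM against 106338 ± 25768 (log2 ratio -0.08). By size, pooled over samples, its share was 80743 CPM at volumes of 100 to 200 and 106370 at 200 to 400 in Leiden 3, and 69241 and 88108 CPM in Leiden 1. Of the 4 measured amyloid genes, App was lower and Apoe, Bace1 and Adam10 were higher. Bace1 and Adam10 encode the secretases that compete for App, and were higher in Leiden 3 in 9 of 14 samples each, at 1142 ± 1602 and 2127 ± 1222 CPM against 742 ± 234 and 1547 ± 486. In the low-count cells of the other classes, App was lower in 12 of 14 samples in dentate and 11 in CA3. The log2 ratios were -0.06 and -0.21.

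Ctnnb1, which encodes the adhesion and Wnt signalling protein beta-catenin, was higher in Leiden 3 in 13 of 14 samples, at 4808 ± 1124 CPM against 3598 ± 668 (log2 ratio 0.42). Enpp2, which makes lysophosphatidic acid and is abundant in oligodendrocytes and choroid plexus, was higher in 12 of 14 samples, at 1972 ± 1780 CPM against 943 ± 556 (log2 ratio 1.06). It rested on 69 counts in all Leiden 3 CA1 neurons, or 0.189 per cell, against 0.347 per cell in Leiden 1. In the low-count cells of the other classes, Enpp2 was higher in 10 of 14 samples in dentate and 10 in CA3 (log2 ratios 0.77 and 1.13). Ctnnb1 was higher there in 12 samples in dentate and 9 in CA3 (log2 ratios 0.15 and 0.09).

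The genes of synaptic signalling that define these neurons were near the level of Leiden 1. Of 16 measured glutamate receptor, scaffold and kinase genes, 6 had a lower and 10 a higher mean share in Leiden 3, none in 12 or more samples, and their median log2 ratio was 0.04, beside 0.07 for the panel. Together they took 325869 ± 16798 CPM in Leiden 3 and 319190 ± 16087 CPM in Leiden 1. Of 5 potassium and HCN channel genes 2 were lower and 3 higher, with sums of 16845 ± 5277 and 16333 ± 5197 CPM. Of 3 genes of cell stress and death 2 were lower and 1 higher, with sums of 1169 ± 798 and 1129 ± 279 CPM.

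Transcripts that mark glia and vessels had a larger mean summed share in the Leiden 3 outlines, while those of CA3 neurons had a smaller one. The 4 oligodendrocyte lineage genes (Enpp2 among them) summed to 635 to 10338 CPM in Leiden 3 and 712 to 2508 CPM in Leiden 1, and were higher in Leiden 3 in 12 of 14 samples. Of these, Cspg4 had 0 counts in Leiden 3. The 5 astrocyte genes summed to 708 to 7092 CPM and 1071 to 2006 CPM, higher in 10 samples, with Gfap at 865 ± 544 and 469 ± 120 CPM. The high ends rest on few counts, since 4 counts make 7092 CPM in the 564 panel counts of Ctl-Veh 12. Median sums in Leiden 3 and Leiden 1 were 2441 and 1158 CPM for oligodendrocyte genes and 2355 and 1693 CPM for astrocyte genes. The 6 endothelial and mural genes summed to 0 to 2214 and 566 to 1099 CPM, also higher in 10 samples. Single members went the other way, with a lower mean share in Leiden 3 for 1 of the 4 oligodendrocyte, 1 of the 5 astrocyte and 2 of the 6 endothelial and mural genes.

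Microglial genes (6) summed to 0 to 4529 CPM in Leiden 3 and 445 to 1123 CPM in Leiden 1, and those of inhibitory neurons (8) to 1588 to 7092 and 1561 to 4577 CPM, each higher in 8 of 14 samples. The median microglial sum was 738 CPM in Leiden 3 and 785 in Leiden 1, and 1 of the 6 genes had a lower mean share in Leiden 3. Ccdc153 of ependyma was at 191 ± 283 and 120 ± 60 CPM, and was lower in Leiden 3 in 8 of 14 samples. The 2 CA3 genes summed to 0 to 1033 CPM in Leiden 3 (mean 344) and 475 to 778 CPM in Leiden 1 (mean 620.0), lower in Leiden 3 in 9 samples. The 2 dentate genes summed to 0 to 1773 and 234 to 597 CPM, higher in 7 samples and lower in 7. Apoe, made mainly by astrocytes and microglia, was at 3392 ± 3029 CPM in Leiden 3 and 1505 ± 447 in Leiden 1 and was higher in 11 of 14 samples. Its highest Leiden 3 values, 8865 CPM in Ctl-Veh 12 and 10338 CPM in Ir-Veh 12, rested on 5 and 11 counts. Per cell, these transcripts were few, with 0.311 counts of the oligodendrocyte genes in Leiden 3 and 0.506 in Leiden 1. Their part in the lower shares of immediate early genes was not tested.

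Leiden 3 CA1 neurons lay inside the CA1 layer among the Leiden 1 cells. Of the 366 cells, 327 (89.3%) had a Leiden 1 CA1 neuron within 20 of the deposited position units. The median distance to the nearest Leiden 1 CA1 neuron was 11.7 ± 1.62 units from Leiden 3 and 11.97 ± 1.10 from Leiden 1 cells (SD, n = 14). The mean difference within samples was -0.22 ± 0.22 units (SE), and Leiden 3 was nearer in 8 of 14 samples (two-sided exact sign-flip permutation test, p = 0.339, adjusted p = 0.339 over the 8 tests).

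Clustering among themselves was not detectable at this number of samples. The share of Leiden 3 cells among the 10 nearest CA1 neighbours, less the share left when the cell itself is removed, was 1.62 ± 0.934 percentage points higher around Leiden 3 than around Leiden 1 cells (SE, n = 14; exact permutation p = 0.110, adjusted p = 0.176; higher in 10 of 14 samples). It ran from -4.17 points in Ctl-Rz 3 to 8.10 points in Ctl-Veh 11. The distance to the tenth nearest annotated cell of any class, a measure of crowding among annotated cells, was 40.9 ± 8.35 units around Leiden 3 and 39.9 ± 8.27 around Leiden 1 cells (log2 ratio 0.03 ± 0.026 SE, exact permutation p = 0.212, adjusted p = 0.283). The annotated classes met here are excitatory neurons of CA1, CA3 and the dentate gyrus. Distances to any class thus describe the spacing of these neurons, and not that of glia, vessels or inhibitory neurons.

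The remaining tested position measures were chosen after the data had been seen, and none passed after adjustment over the 8 tests. The nearest annotated cell of any class lay at 11.1 ± 1.38 units from Leiden 3 and 11.6 ± 0.971 from Leiden 1 cells, nearer in 10 of 14 samples (difference -0.53 ± 0.196 SE, exact permutation p = 0.0208, adjusted p = 0.083). The distance from the local axis of the layer was 13.1 ± 3.77 and 12.2 ± 1.49 units (exact permutation p = 0.315, adjusted p = 0.339). The log2 ratio of the distance to the nearest CA3 neuron was -0.16 ± 0.0729 (SE; exact permutation p = 0.0431, adjusted p = 0.115), and that to the nearest dentate neuron -0.03 ± 0.0168 (p = 0.0748, adjusted p = 0.150). The tested measures of position along and across the layer thus gave no difference past the threshold at this number of samples. A further measure, the share of cells with another annotated cell closer than 8 units, was not tested. It was 14.3% ± 11.6 in Leiden 3 and 5.76% ± 4.46 in Leiden 1 (SD, n = 14). This share was lower in Leiden 3 in Ir-Veh 1 and 12, equal in Ctl-Rz 8 and Ctl-Veh 12, and higher in Leiden 3 in the other samples.

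**Figure D4:**
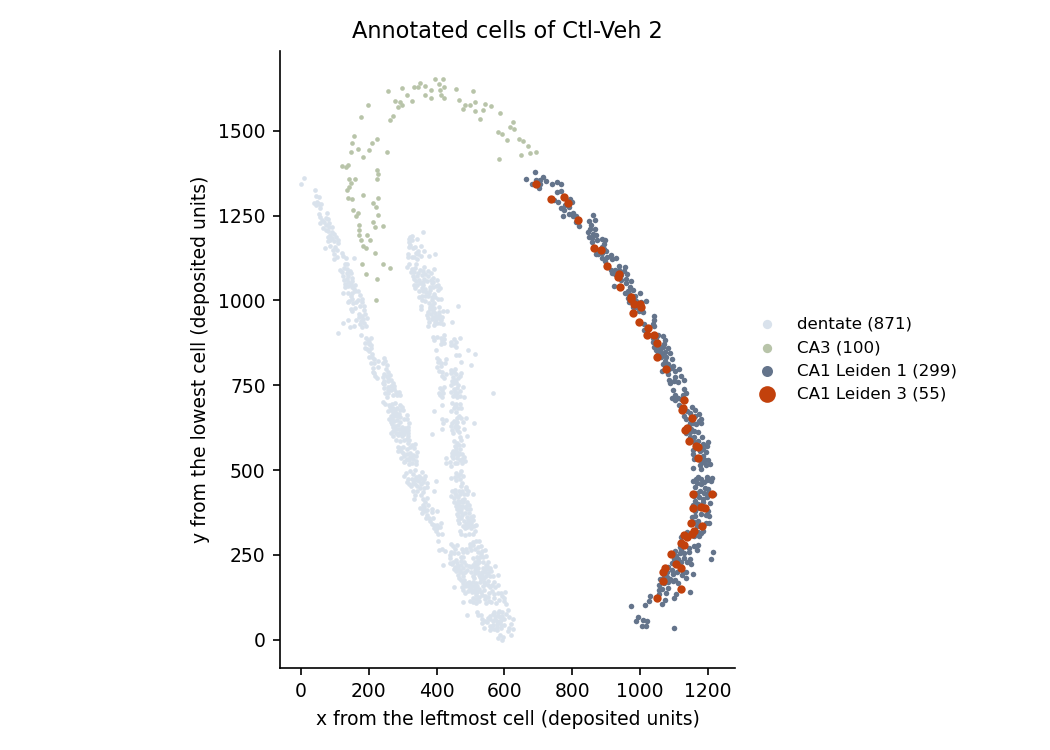
Position of the annotated cells of Ctl-Veh 2, in deposited units from the leftmost and the lowest cell, with Leiden 3 CA1 neurons in orange (55 cells), Leiden 1 CA1 neurons in grey-blue (299), and dentate and CA3 neurons in pale colours. All 55 Leiden 3 cells lay within 20 units of a Leiden 1 cell along the CA1 layer.

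The share of CA1 neurons in Leiden 3 varied widely between samples, and no difference by condition passed a test. In Ctl-Veh 2, 3, 8, 11 and 12 it was 15.1%, 13.2%, 6.49%, 19.9% and 1.395%. In Ctl-Rz 3, 8 and 11 it was 11.2%, 15.7% and 7.02%. In Ir-Veh 1, 2, 9 and 12 it was 10.6%, 7.89%, 23.1% and 3.04%, and in Ir-Rz 1 and 9 it was 12.5% and 8.70%. The groups overlapped, and both samples of run 12 were below all others.

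Mean shares were 11.2% ± 7.30 (SD, n = 5) for Ctl-Veh and 11.3% ± 4.35 (n = 3) for Ctl-Rz. They were 11.2% ± 8.54 (n = 4) for Ir-Veh and 10.6% ± 2.69 (n = 2) for Ir-Rz. Two-sided exact permutation tests gave p = 0.992 for radiation (Ir-Veh against Ctl-Veh), 1 for RZ after radiation (Ir-Rz against Ir-Veh) and 1 for RZ without it (Ctl-Rz against Ctl-Veh). The smallest p these designs allow is 0.00794, 0.0667 and 0.0179. Within the runs that held both groups, the differences were -7.22 and 1.65 percentage points for Ir-Veh minus Ctl-Veh, 1.85 and -14.4 for Ir-Rz minus Ir-Veh, and -2.05, 9.23 and -12.9 for Ctl-Rz minus Ctl-Veh, with both signs in each comparison. Median counts, median volume and neighbour excess of the Leiden 3 cells did not pass either, with an adjusted p of 1 in all 12 exact permutation tests.

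Samples with a large Leiden 3 share of CA1 neurons also had a large Leiden 3 share of CA3 neurons. Over 14 samples Pearson's r was 0.886 (permutation p = 4e-05, adjusted p = 0.00012 over 3 relations) and Spearman's rho 0.855 (permutation p = 0.00018, adjusted p = 0.00054). Without the 2 samples farthest from the median, Ctl-Veh 12 and Ir-Veh 9, r was 0.8004, and without both samples of run 12 it was 0.847. In 7 of 7 runs the sample with the higher share in CA1 also had the higher share in CA3. Samples of 1 run share an assay number and are not taken as independent.

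With the Leiden 3 share of dentate neurons, r was 0.560 (permutation p = 0.0398, adjusted p = 0.0597) and rho 0.618 (permutation p = 0.0227, adjusted p = 0.034), and r without the 2 farthest samples was 0.435, so the linear relation did not pass after adjustment. Without both samples of run 12, r with the dentate share was 0.713. Here too the order within runs was the same in 7 of 7 runs. With the median counts of Leiden 1 CA1 neurons, r was -0.131 (permutation p = 0.673). Without the 2 farthest samples, Ctl-Veh 8 and Ir-Veh 12, it was -0.365, and without both samples of run 12 it was -0.593. Neither of these values was tested. The sample with the higher Leiden 3 share also had the higher median Leiden 1 counts in 1 of 7 runs. The cause of the shared variation was not tested.

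**Figure D5:**
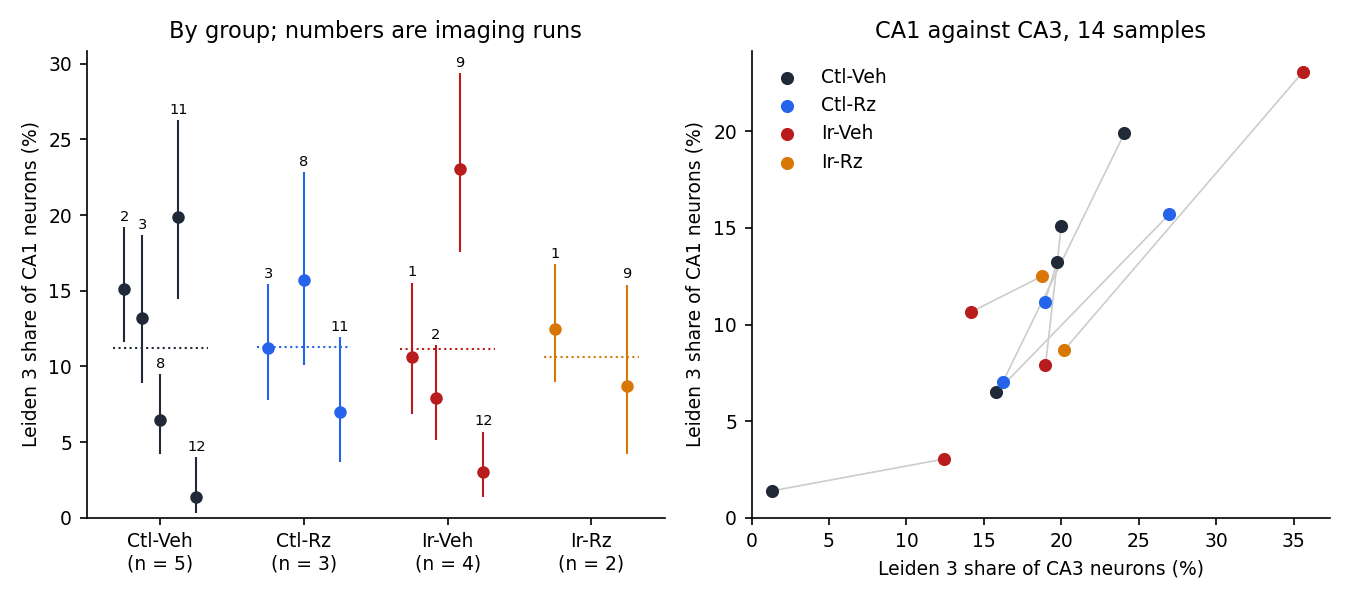
Left, Leiden 3 share of CA1 neurons (percent) in each sample by group, with exact 95% binomial intervals, run numbers and dotted group means. Right, the same share against the Leiden 3 share of CA3 neurons, with grey lines joining the 2 samples of a run (Pearson's r = 0.886, n = 14).

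Radiation and RZ gave no called gene within the Leiden 3 CA1 neurons. Counts were summed per sample over the 12 samples with 10 or more such cells (Ctl-Veh 4, Ctl-Rz 3, Ir-Veh 3 and Ir-Rz 2), which left out run 12 and gave 1104 to 6299 panel counts a sample. Of 62 genes tested with edgeR's quasi-likelihood test, 0 (0%) were called at an adjusted p under 0.05 in each of the 3 comparisons. At an unadjusted p under 0.05 there were 0 genes for radiation, 1 for RZ after radiation and 1 for RZ without it. DESeq2 called 0 as well, and its unadjusted p fell under 0.05 for 0, 1 and 2 genes.

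The genes with the smallest p are given as values. For Ir-Veh against Ctl-Veh these were Dapk1, a death-associated kinase, with a log2 fold change of -0.63 ± 0.337 (SE), Cplx1, a complexin of synaptic vesicle release, with 0.66 ± 0.358, and the receptor Gpr158 with -0.49 ± 0.302 (edgeR adjusted p = 0.973 each). With the run as a block the Dapk1 value turned to 0.34, and in run 2 the irradiated sample was at 6416 CPM and the unirradiated one at 5129 CPM. For Ir-Rz against Ir-Veh they were Adgrl2 with 0.82 ± 0.358, Gpr158 with 0.74 ± 0.371 and Crtac1, a secreted matrix protein, with -1.16 ± 0.590 (edgeR adjusted p = 0.975 each). For Ctl-Rz against Ctl-Veh they were Crtac1 with -1.53 ± 0.531 (edgeR adjusted p = 0.518), Dlg4, the scaffold protein PSD-95, with -0.61 ± 0.308 and Kcnd2, a potassium channel, with -0.54 ± 0.351 (edgeR adjusted p = 0.940 for both). None passed the test.

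Crtac1 in Leiden 3 was at 3590, 3174, 3907 and 2831 CPM in Ctl-Veh 2, 3, 8 and 11, and at 1037, 1422 and 710 CPM in Ctl-Rz 3, 8 and 11, scaled by TMM. The counts behind these values were 55 and 10. Crtac1 is named because its p was the smallest of the 62 genes, and the share of genes called in this comparison was 0%. It was at 4717, 4619 and 3660 CPM in Ir-Veh 1, 2 and 9 and at 2255 and 952 CPM in Ir-Rz 1 and 9, where it is likewise among the genes named for a small p. In Leiden 1, without TMM, Crtac1 was at 2063, 2956, 1380 and 2532 CPM in Ctl-Veh 2, 3, 8 and 11. In Ctl-Rz 3, 8 and 11 of Leiden 1 it was at 1199, 804 and 2881 CPM, so these groups overlapped there. The irradiated groups of Leiden 1 overlapped too, at 3138, 2723 and 2019 CPM in Ir-Veh 1, 2 and 9 and 3876 and 2054 CPM in Ir-Rz 1 and 9.

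No difference of immediate early genes by condition passed the test within Leiden 3. Arc was at 9233 ± 2354 CPM in Ctl-Veh (SD, n = 4), 10434 ± 2998 in Ir-Veh (n = 3), 9384 ± 195 in Ir-Rz (n = 2) and 10444 ± 3762 in Ctl-Rz (n = 3). Egr1 was at 11772 ± 575, 11937 ± 1351, 11188 ± 2356 and 10244 ± 4979 CPM in the same order. Of the 3 members of the list with enough counts to test, 0 were called in any comparison, and their median log2 fold change was 0.02 for radiation, -0.04 for RZ after radiation and 0.20 for RZ without it, beside -0.01, 0.04 and 0.01 over the 62 genes.

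Whether the conditions acted differently on the 2 clusters was tested as an interaction, with the sample as a block, over 190 genes. For radiation, and for RZ after radiation, 0 genes (0%) were called by edgeR, with 8 and 9 at an unadjusted p under 0.05. For RZ without radiation 1 gene (0.526%) was called, Dlg4, and 10 had an unadjusted p under 0.05. The effect of RZ on Dlg4 in Leiden 3 minus that in Leiden 1 was -0.63 ± 0.171 on the log2 scale (SE; edgeR adjusted p = 0.0457), and the median of all 190 genes in this comparison was -0.18. In Leiden 3, Dlg4 was at 17780 ± 8448 CPM with RZ (SD, n = 3) and 27400 ± 7307 CPM without (n = 4), and in Leiden 1 at 24495 ± 7694 and 26501 ± 7343 CPM. The call was lost in each of 14 alternatives, which were the omission of TMM factors, of the filter on low counts and of each of the 12 samples in turn.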

How the data were processed

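The deposited table held counts of transcripts per cell, whole numbers with no sign of normalization by the authors in their values. Cells had been outlined on MERSCOPE images with a custom Cellpose pipeline, per the labels. The deposited cell table gave each cell's sample, run, class, Leiden cluster, total counts, volume and position. No source used here gives software versions, filters, clustering settings or the units of volume and position. The 255 genes analysed, alphabetically Abi3 to Kcnj8, hold 55.9% to 59.2% of the deposited total per sample, and samples held 137786 to 434127 panel counts. No cell was removed, no doublet caller was run on outlined cells, and unused per-sample columns numbered 0.

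Counts were summed per sample and cluster. CPM is scaled to the counts of the 255 genes. Condition tests used edgeR 4.0.16 in R 4.3.3 (quasi-likelihood, TMM, filterByExpr, all groups in 1 fit) with Benjamini-Hochberg adjustment at 0.05, and DESeq2 1.42.0 as an alternative. Within-sample differences used all 16384 sign flips, and correlations 100000 permutations (scipy 1.17.1, numpy 2.4.6, pandas 2.3.3, Python 3.11.15). The scripts were tested on simulated data. An edgeR test of small against large outlines, added after the data had been seen, called too many unchanged genes there and its results are not used. Run numbers paired the samples: each run's 2 samples are recorded under 1 assay number in the cell table. Their deviations from group means correlated at 0.126 to 0.544 over 55 genes in the 6 runs examined. Pairs from different runs were not compared, so these values cannot show whether the run matters.

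The cells and gene lists were chosen with earlier results of these data known. The genes named were all marker list members by their sums, up to 15 genes in each direction with 0.2 or more counts per cell and the same direction in 12 or more of 14 samples, and the 3 genes with the smallest p in each condition comparison. Fosb, Fosl2, Bdnf, Gfap, Apoe, Bace1 and Adam10 were picked from the lists after their values were seen.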

Additional observations from a re-analysis of the deposited data

Results flagged for a closer look

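Of 38 groups of 4 or 5 samples examined, 4 had a sample far from the others, and chance flags about 1 in 20. All 4 came from Ctl-Veh 12, which held 3 Leiden 3 CA1 neurons with 564 panel counts. Its median Leiden 3 volume was 586, against 164 to 264 in the other 4 Ctl-Veh samples, and its ratio of Leiden 3 to Leiden 1 volume was 0.655, against 0.234 to 0.268. Its immediate early genes in Leiden 3 summed to 10638 CPM, against 22671 to 26195 CPM. Its Egr1 share in Leiden 3 was 7092 CPM, against 11336 to 11619 CPM.

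The effect of RZ in unirradiated mice on Dlg4 was called as different between the clusters in 1 setting alone, with a log2 difference, Leiden 3 minus Leiden 1, of -0.63 (SE 0.171, edgeR adjusted p = 0.0457). In Leiden 3 the Ctl-Rz samples ran from 10630 to 27102 CPM and the Ctl-Veh samples from 17824 to 35402 CPM, so the groups overlapped. The call was lost in every alternative run, with 0 genes called without TMM, with no filter on low counts and in each of the 12 fits that left out a sample.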

How the results depend on the processing

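Of 483 values recomputed under alternatives for 44 results, 425 were rated the same. For tested measures this meant the same direction and side of 0.05, by unadjusted p for samples and adjusted p for genes. Counts of genes were rated the same when close in size. Untested log2 ratios were rated the same when they moved by less than their SD across samples. The smaller volume of Leiden 3 outlines held throughout, with -1.93 to -1.80 on the log2 scale when each sample was left out. A pair of position results turned direction with the 5th nearest neighbour: distance to Leiden 1 neurons was 1.14 units and the log2 ratio of local density -0.0131. With means in place of medians, the nearest cell of any class was at -0.464 units and the log2 ratio to CA3 neurons was -0.0545, both no longer past an unadjusted p of 0.05, while that to dentate neurons was -0.0210 and passed it. Leaving out each sample in turn gave 1.12 to 2.07 points for neighbours, 0.0231 to 0.0508 for density, -0.20 to -0.13 for CA3 and -0.0380 to -0.0172 for dentate distance.

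The share of CA1 neurons in Leiden 3 changed sign in differences near 0. For radiation it was 0.189 points without run 12, and for RZ without radiation -0.140 with Leiden 1 and 3 alone as the denominator and -2.37 without run 12. With the replicate block, in which samples are paired by run, the latter was -1.90 (exact permutation p = 0.75). Leaving out 1 sample gave -4.03 to 2.65 points for radiation, -3.27 to 3.41 for RZ after radiation and -2.37 to 2.25 for RZ without it. Median counts ranged from -26.5 to 4.75, from -23.2 to 4.83 and from -45.2 to 10.55 in the same order, and the last was 1.35 with means. Median volume ranged from -99.2 to 6.52 for radiation. Neighbour excess ranged from -3.01 to 7.51 points for RZ after radiation and from -3.18 to 1.18 for RZ without it.

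The replicate block turned the Dapk1 log2 fold change for radiation to 0.34, and edgeR again called 0 genes in each comparison, with 3 at an unadjusted p under 0.05 in each. The Dlg4 interaction gave 0 calls without TMM, 0 with no filter and 0 in each fit that left out a sample. The count of genes with 1 direction was 8, and 13 without the samples of under 10 cells. Egr2, on 8 counts, had a log2 ratio of -3.88 after thinning. Causes of these changes were not tested, and the 44255 panel counts of all Leiden 3 CA1 neurons limit the genes that could be tested.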
